A study of Mus musculus with 9 samples.

Results

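Proximal T cell receptor signalling is described here as a module of 44 genes, taken from a written list of kinases, adaptors, phospholipase, exchange factors, costimulatory receptors and their inhibitors. A gene counted as a member where its symbol stood in the deposited expression table. All 44 were found among the 16500 listed genes. By role, 27 members were activators, 13 were inhibitors and 4 were genes reported in both roles (Ptprc, Ptpn11, Themis and Sh2d2a).

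Primary CD4+ T cells isolated from C57BL/6 mice, kept in RPMI-1640 with serum, were given 1 of 3 retroviral vectors before their RNA was sequenced. The vectors were NFAT2-CARIT, NFAT2-CA and a control vector (Control), and each group had 3 paired-end RNA-seq libraries, 9 in all. NFAT2, the product of Nfatc1, is a transcription factor that calcium and the phosphatase calcineurin normally switch on. The CA (constitutively active) form needs no such signal. The RIT changes weaken the binding of NFAT2 to DNA together with its partner AP-1, a dimer of Fos and Jun proteins. NFAT2-CARIT thus differs from NFAT2-CA in the RIT changes. The sources used here do not give the time after transduction, the stimulation of the cells, the share of cells that took up a vector or a sort for them. Separate animals or cultures are not named either, so p-values cover only the spread of these libraries, which may be technical.

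When the T cell receptor binds its ligand, the kinase Lck phosphorylates the receptor's CD3 and zeta chains, and Zap70 docks on them and is activated. Zap70 then phosphorylates the scaffolds Lat and SLP-76 (encoded by Lcp2), on which phospholipase C gamma, exchange factors for Ras and Rac, and Tec-family kinases gather. Phospholipase C gamma produces the messengers that raise calcium, the signal for NFAT, and that switch on protein kinase C and Ras. Phosphatases, the kinase Csk and inhibitory adaptors hold the same steps in check.

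Levels are given as CPM, a gene's reads scaled to the same total in every library. The libraries held an estimated 19854000 to 38108000 reads, so 1 CPM rests on roughly 19.9 to 38.1 reads. A fold change is the difference of group means of log2(CPM + 1), given with its standard error (SE) and an adjusted p from limma over the 13096 genes that reached 1 CPM in at least 3 libraries. Group means are given ± SD (n = 3). For members described by group means alone, the SE of the fold changes was 0.05 to 0.07. A gene was called, and is said to have risen or fallen, at an adjusted p under 0.05. CPM are not scaled by gene length, so levels are compared between libraries and not between genes. Every member passed the filter on low values. Values of members ran between 1.39 CPM (Trat1, NFAT2-CA replicate 3) and 3916 CPM (Ptprc, Control replicate 3), and 41 members stood at 10 CPM or more in all 9 libraries. The members' median of 220.2 CPM lay above the 22.9 CPM of all genes tested, and their median SE of 0.062 lay below the 0.091 of all genes.

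The labelled cell type was checked on marker genes. Cd4 stood at 1609.6 to 1698 CPM with NFAT2-CARIT, 1554 to 1661 CPM with NFAT2-CA and 1504 to 1612 CPM in Control. Among the T cell markers Thy1 was lower with either vector, at 648 to 662 CPM with NFAT2-CARIT, 632 to 658 CPM with NFAT2-CA and 4521 to 4989.9 CPM in Control. Trac and Cd3e went the other way. Trac stood at 859 to 881 CPM, 845 to 888 CPM and 579.8 to 615 CPM in the same order of groups. Cd3e stood at 674 to 736 CPM, 901 to 979.9 CPM and 409.7 to 437 CPM. For Cd3g the values were 602 to 623 CPM, 832 to 891 CPM and 574 to 619 CPM. Of 6 B cell markers, 3 were listed (Cd79a, Cd79b and Ighm), with sums of 182 to 204 CPM with NFAT2-CARIT, 206 to 211 CPM with NFAT2-CA and 411 to 422 CPM in Control. Nearly all of each sum was Ighm, while Cd79a and Cd79b reached at most 2.77 CPM, in Control. Of 8 myeloid and dendritic markers, 4 were listed, summing to 9.90 to 12.1 CPM, 10.3 to 13.7 CPM and 11.6 to 13.3 CPM with NFAT2-CARIT, with NFAT2-CA and in Control. Within these sums single markers differed in opposite directions. Itgam stood at 0.916 to 1.70 CPM, 0.632 to 0.796 CPM and 6.83 to 9.29 CPM in the same order of groups. H2-Eb1 stood at 6.89 to 8.82 CPM, 8.60 to 11.8 CPM and 3.65 to 4.83 CPM. Cd14 and Itgax reached at most 1.35 CPM, higher with NFAT2-CARIT than in Control. The CD8 T cell markers Cd8a and Cd8b1 summed to 22.6 to 24.0 CPM, 28.4 to 30.8 CPM and 12.5 to 13.7 CPM in these groups. Of 4 NK cell markers 1 was listed (Eomes), at 3.67 CPM or less. Of 5 mast cell and platelet markers 2 were listed (Kit and Itga2b), with sums of 6.66 CPM or less. Of 3 erythroid markers 0 were listed. The part of the B cell and CD8 differences in the results below was not tested. Nfatc1 itself averaged 246 ± 6.48 CPM with NFAT2-CARIT, 358 ± 32.7 CPM with NFAT2-CA and 213 ± 22.1 CPM in Control (SD, n = 3 each). Reads of the inserted and the native gene cannot be told apart in these values.

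Among the 44 members, 17 rose and 26 fell with NFAT2-CARIT against Control, and 1 (Lck) did not pass the test. Of all genes tested in that comparison, 70.3% were called, 29.2% up and 41.1% down. With NFAT2-CA against Control 16 members rose, 24 fell and 4 did not pass (Lck, Fyn, Plcg1 and Dok1), where 65.5% of all genes were called, 29.0% up and 36.5% down. The members' median fold change was -0.29 with NFAT2-CARIT and -0.28 with NFAT2-CA, beside -0.09 and -0.06 over all genes tested. Both comparisons use the same 3 Control libraries. A change of at least 2-fold was called for 13 members with NFAT2-CARIT (4 up, 9 down), with 17.2% of all genes past that mark, and for 14 with NFAT2-CA (6 up, 8 down), with 13.8% of all genes past it. Libraries did not overlap with Control for 42 members with NFAT2-CARIT and 41 with NFAT2-CA, beside 73.1% and 68.3% of all genes. With the filter at 10 CPM in at least 3 libraries, which leaves genes closer to the members' level, 42 of 43 members were called with NFAT2-CARIT and 40 of 43 with NFAT2-CA, beside 75.4% and 72.0% of all genes. In the authors' deposited table an FDR of 0.05 was passed by 37 members with NFAT2-CARIT (25.6% of all genes) and by 31 with NFAT2-CA (21.9% of all genes). In bulk RNA, fewer cells of a type and less RNA per cell cannot be told apart.

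Activators and inhibitors each held members that moved either way. Of the 27 activators, 10 rose and 16 fell with NFAT2-CARIT, and 9 rose and 15 fell with NFAT2-CA. Of the 13 inhibitors, 5 rose and 8 fell with NFAT2-CARIT, and 5 rose and 7 fell with NFAT2-CA. Of all genes tested, 29.2% rose and 41.1% fell with NFAT2-CARIT, and 29.0% rose and 36.5% fell with NFAT2-CA. The median fold changes were -0.24 for activators and -0.53 for inhibitors with NFAT2-CARIT, and -0.28 and -0.39 with NFAT2-CA. Over all genes tested the medians were -0.09 with NFAT2-CARIT and -0.06 with NFAT2-CA. No role therefore stood on 1 side of 0 as a whole, and the results are given by step of the pathway.

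**Figure D1:**
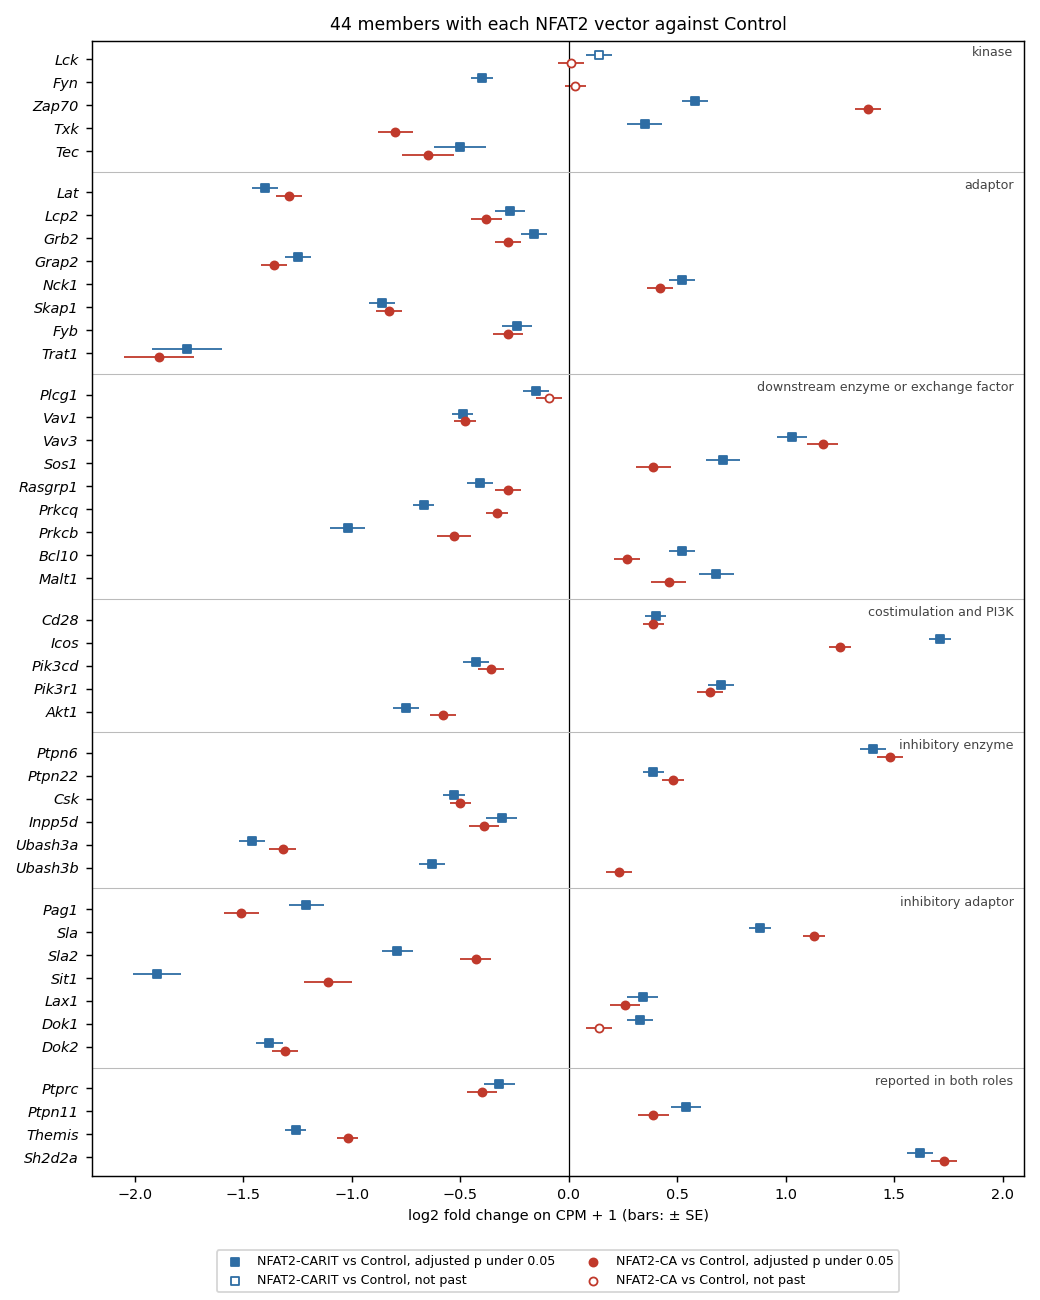
Log2 fold change on CPM + 1 of the 44 members with NFAT2-CARIT (squares) and NFAT2-CA (circles) against Control, by role, with bars of ± SE over 3 libraries a group; filled points passed an adjusted p under 0.05. The adaptors other than Nck1 lie left of 0 with either vector, while Zap70, Vav3, Icos, Ptpn6, Sla and Sh2d2a lie right of it.

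Among the receptor-proximal kinases, Zap70 rose with either vector and more with NFAT2-CA. Values of Zap70 were 381, 364 and 349.9 CPM in NFAT2-CARIT libraries, 643, 674 and 598 CPM in NFAT2-CA libraries and 249.8, 240.4 and 241 CPM in Control libraries. The 3 groups did not overlap. Zap70 rose 1.50-fold with NFAT2-CARIT (0.58 ± 0.06, adjusted p 2.0e-07) and 2.62-fold with NFAT2-CA (1.38 ± 0.06, adjusted p 4.7e-12), and NFAT2-CARIT lay below NFAT2-CA (-0.80 ± 0.06, adjusted p 5.5e-08). Lck, the Src-family kinase that starts the cascade, did not pass in any comparison. In the NFAT2-CARIT libraries Lck stood at 937, 896 and 889.8 CPM, in the NFAT2-CA libraries at 852, 863 and 775 CPM, and in Control at 799.6, 779 and 891 CPM. The Control range overlapped that of either vector, and the differences were 0.14 ± 0.06 (adjusted p 0.056) with NFAT2-CARIT and 0.01 ± 0.06 (adjusted p 0.88) with NFAT2-CA. The difference with NFAT2-CARIT lies near the threshold and was called as a rise under 4 of 18 alternatives in limma: TMM factors (0.22, adjusted p 0.0059), array quality weights (0.18, 0.0010), without Control replicate 3 (0.20, 0.0036) and without NFAT2-CA replicate 3 (0.14, 0.043). Fyn, the other Src-family kinase of T cells, fell with NFAT2-CARIT. Fyn had 257, 254 and 261 CPM with NFAT2-CARIT, 351, 341 and 346 CPM with NFAT2-CA, against 352, 337 and 330.3 CPM in Control. All NFAT2-CARIT libraries lay below all others, while NFAT2-CA and Control libraries overlapped. Fyn changed by -0.40 ± 0.05 (adjusted p 3.4e-06) with NFAT2-CARIT against Control and by -0.42 ± 0.05 (adjusted p 1.5e-05) against NFAT2-CA, and the NFAT2-CA difference from Control was 0.03 ± 0.05 (adjusted p 0.67).

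Txk, a Tec-family kinase able to act on phospholipase C gamma, was called in opposite directions with the 2 vectors. Values of Txk were 62.1, 68.6 and 74.4 CPM in NFAT2-CARIT libraries, 28.1, 30.2 and 32.4 CPM in NFAT2-CA libraries and 50.2, 52.0 and 57.6 CPM in Control libraries. The groups did not overlap, with the NFAT2-CARIT libraries highest and the NFAT2-CA libraries lowest. Txk rose by 0.35 ± 0.08 (adjusted p 8.2e-04) with NFAT2-CARIT and fell with NFAT2-CA (-0.80 ± 0.08, adjusted p 1.8e-07). The direct difference between the vectors was 1.15 ± 0.08 (adjusted p 2.7e-08), a ratio of 2.26. It was the sole member called at 2-fold or more between the vectors, where 1.68% of all genes were. In the authors' deposited table the rise with NFAT2-CARIT was not called (0.36, FDR 0.19), while the fall with NFAT2-CA and the difference between the vectors were. Tec, of the same family, lies beside it on chromosome 5 (Txk at 72695978 to 72752778, Tec at 72755716 to 72868484, both on the minus strand, mm10 as the authors list them). In the NFAT2-CARIT libraries Tec stood at 11.3, 10.5 and 9.27 CPM, in the NFAT2-CA libraries at 9.97, 10.1 and 7.88 CPM, and in Control at 13.1, 16.8 and 15.5 CPM. Both vectors lay below Control, with fold changes of -0.50 ± 0.12 (adjusted p 0.0011) with NFAT2-CARIT and -0.65 ± 0.12 (adjusted p 1.3e-04) with NFAT2-CA, and they overlapped each other. Neither fall of Tec was called in the authors' deposited table (FDR 0.36 with NFAT2-CARIT and 0.22 with NFAT2-CA).

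The promoters of Zap70 and Txk are shown because these kinases moved furthest between the vectors. Each is 250 bases before the RefSeq start (GRCm38.p6), written 5′ to 3′ on the gene's strand; the capitals mark GGAAA or its reverse complement TTTCC, the core that NFAT proteins bind. Zap70's lies at chr1:36761548-36761797 (plus strand) and Txk's at chr5:72752778-72753027 (minus strand).
Zap70: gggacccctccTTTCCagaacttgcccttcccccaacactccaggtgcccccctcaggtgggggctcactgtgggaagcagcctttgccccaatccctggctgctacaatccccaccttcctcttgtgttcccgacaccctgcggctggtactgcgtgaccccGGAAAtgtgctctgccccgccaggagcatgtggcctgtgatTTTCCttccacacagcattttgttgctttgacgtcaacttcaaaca
Txk: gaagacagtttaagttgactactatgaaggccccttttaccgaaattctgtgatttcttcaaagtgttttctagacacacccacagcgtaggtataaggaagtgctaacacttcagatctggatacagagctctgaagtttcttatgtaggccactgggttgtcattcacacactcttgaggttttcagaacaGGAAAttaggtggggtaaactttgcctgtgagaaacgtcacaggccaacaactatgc
Zap70's window held 3 such motifs and Txk's held 1. Of the 44 members, 35 had a RefSeq promoter and 28 had one that started within 500 bases of the listed 5′ end. In these 28, GGAAA on either strand occurred in 17 (60.7%), beside 54.0% of 8135 tested genes and 55.6% of all 32851 promoters in the table. It occurred in 9 of 17 activator promoters and 6 of 8 inhibitor promoters. The AP-1 motif TGANTCA, read on both strands, occurred in 0 of the 28, beside 3.81% of tested genes and 6.75% of all promoters. The motifs do not overlap in sequence, and a match of letters describes these windows only.

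The adaptors that build the signalling complex were mostly lower with either vector. Of 8, 7 fell and 1 (Nck1) rose in each comparison with Control, with a median fold change of -0.57 with NFAT2-CARIT and -0.61 with NFAT2-CA. Of all genes tested, 41.1% fell with NFAT2-CARIT and 36.5% with NFAT2-CA, and the medians were -0.09 and -0.06. Lat is the membrane scaffold phosphorylated by Zap70. Lat had 129.8, 132 and 129 CPM with NFAT2-CARIT, 148, 142 and 133 CPM with NFAT2-CA, against 334, 343 and 362 CPM in Control. All Control libraries lay above the others, with fold changes of -1.40 ± 0.06 (adjusted p 2.6e-12) with NFAT2-CARIT and -1.29 ± 0.06 (adjusted p 8.4e-12) with NFAT2-CA. Grap2 (GADS) links Lat to SLP-76. Values of Grap2 were 143, 152 and 167 CPM in NFAT2-CARIT libraries, 141, 140.2 and 146 CPM in NFAT2-CA libraries and 365, 369.8 and 368 CPM in Control libraries. Again no library of either vector reached a Control library, and the fold changes were -1.25 ± 0.06 (adjusted p 1.8e-11) and -1.36 ± 0.06 (adjusted p 7.3e-12) with NFAT2-CARIT and NFAT2-CA. Lcp2, which encodes SLP-76 itself, fell less. In the NFAT2-CARIT libraries Lcp2 stood at 296, 303 and 336 CPM, in the NFAT2-CA libraries at 285, 309.9 and 273 CPM, and in Control at 394, 375 and 359.7 CPM. The vectors overlapped each other and lay below Control, with fold changes of -0.27 ± 0.07 (adjusted p 0.0015) with NFAT2-CARIT and -0.38 ± 0.07 (adjusted p 8.8e-05) with NFAT2-CA.

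Skap1 encodes SKAP55, which with the adaptor ADAP (encoded by Fyb) couples the receptor to integrins. Skap1 had 194, 189 and 188 CPM with NFAT2-CARIT, 187, 205 and 189.8 CPM with NFAT2-CA, against 340.3, 332 and 366 CPM in Control. It fell by similar sizes, -0.86 ± 0.06 (adjusted p 1.4e-09) with NFAT2-CARIT and -0.83 ± 0.06 (adjusted p 2.5e-09) with NFAT2-CA, and the vectors overlapped. Trat1 encodes TRIM, a transmembrane adaptor that associates with the receptor complex. Values of Trat1 were 2.09, 1.76 and 2.51 CPM in NFAT2-CARIT libraries, 1.75, 2.47 and 1.39 CPM in NFAT2-CA libraries and 8.46, 8.85 and 11.4 CPM in Control libraries. These values were the lowest of any member in each group, with Control above all other libraries. Trat1 had the largest changes among these 8 adaptors, -1.76 ± 0.16 (adjusted p 6.5e-08) with NFAT2-CARIT and -1.89 ± 0.16 (adjusted p 3.3e-08) with NFAT2-CA. Fyb averaged 1426 ± 127 CPM with NFAT2-CARIT, 1383 ± 78.3 CPM with NFAT2-CA and 1680.5 ± 63.9 CPM in Control and fell by 0.24 on the log2 scale with NFAT2-CARIT and by 0.28 with NFAT2-CA. Quantile normalization ended the NFAT2-CARIT call for Fyb, at an adjusted p of 0.083 in limma. Grb2, which brings the Ras exchange factor Sos1 to Lat, averaged 120.1 ± 2.78 CPM with NFAT2-CARIT, 111 ± 3.29 CPM with NFAT2-CA and 135 ± 5.80 CPM in Control. It fell by 0.28 with NFAT2-CA and by 0.16 with NFAT2-CARIT, where leaving out NFAT2-CARIT replicate 3 (adjusted p 0.053, limma) or Control replicate 1 (0.063) ended the call. Neither fall of Grb2 was called in the authors' deposited table (FDR 0.096 with NFAT2-CA and 0.40 with NFAT2-CARIT). Nck1, an adaptor to the actin machinery, averaged 73.3 ± 1.89 CPM with NFAT2-CARIT, 68.5 ± 0.352 CPM with NFAT2-CA and 51.0 ± 4.15 CPM in Control and rose by 0.52 with NFAT2-CARIT and 0.42 with NFAT2-CA. None of the 8 adaptors passed between the vectors, where 28.6% of all genes did.

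**Figure D2:**
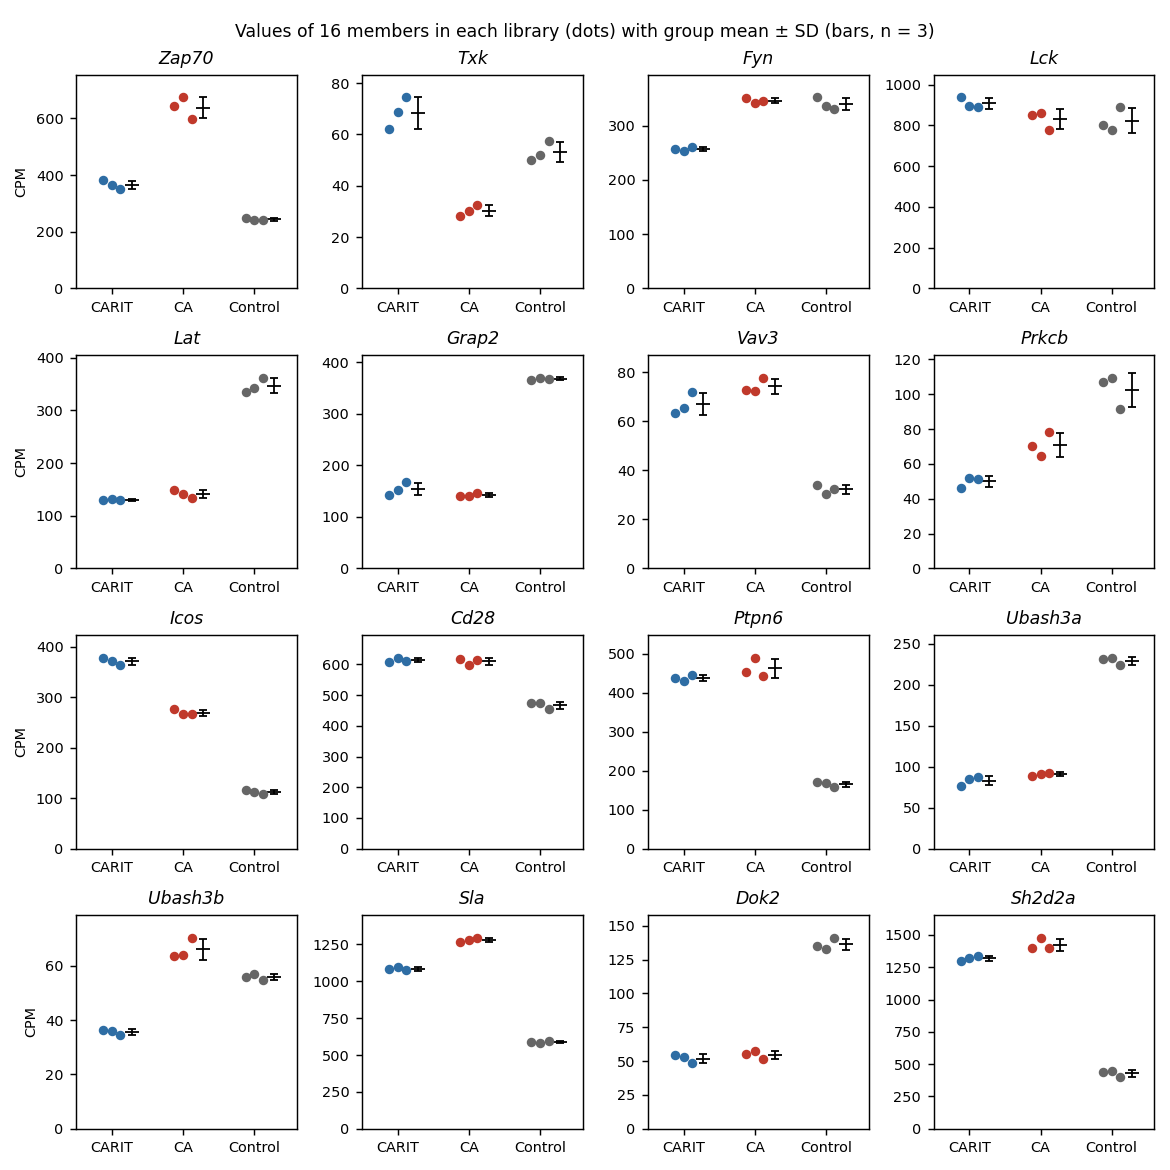
CPM of 16 members in each library (dots) with the group mean ± SD (bars, n = 3), with an axis from 0 in each panel. Libraries of the 3 groups do not overlap for Zap70, Txk, Lat, Vav3, Prkcb, Icos, Ubash3a, Ubash3b, Sla and Sh2d2a. For Lat, Grap2, Ubash3a and Dok2 both vectors lie at or below 167 CPM and all Control libraries lie above them.

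The plot of single-library values shows both vectors overlapping away from Control, as for Grap2 and Dok2, and 3 separate levels, as for Zap70 and Icos. Among the 9 enzymes and exchange factors downstream, 4 rose and 5 fell with NFAT2-CARIT, and 4 rose and 4 fell with NFAT2-CA. The shares of all genes were 29.2% up and 41.1% down with NFAT2-CARIT, and 29.0% and 36.5% with NFAT2-CA. Vav3 and Vav1, exchange factors for Rac-family proteins, moved in opposite directions. In the NFAT2-CARIT libraries Vav3 stood at 63.4, 65.6 and 72.1 CPM, in the NFAT2-CA libraries at 72.8, 72.3 and 77.9 CPM, and in Control at 34.1, 30.4 and 32.6 CPM. Vav3 rose 2.07-fold with NFAT2-CARIT (1.03 ± 0.07, adjusted p 1.0e-09) and 2.30-fold with NFAT2-CA (1.17 ± 0.07, adjusted p 2.1e-10), with Control below all other libraries. Vav1 averaged 148 ± 2.16 CPM with NFAT2-CARIT, 149 ± 4.16 CPM with NFAT2-CA and 208 ± 9.07 CPM in Control and fell by 0.49 with NFAT2-CARIT and 0.48 with NFAT2-CA on the log2 scale.

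Both exchange factors for Ras were called as well, in opposite directions. Sos1 is recruited by Grb2. Sos1 had 96.0, 101 and 115 CPM with NFAT2-CARIT, 86.1, 74.3 and 89.4 CPM with NFAT2-CA, against 66.0, 65.9 and 58.2 CPM in Control. The groups did not overlap, and Sos1 rose by 0.71 ± 0.08 (adjusted p 1.3e-06) with NFAT2-CARIT and 0.39 ± 0.08 (adjusted p 6.6e-04) with NFAT2-CA. Its difference between the vectors, 0.32 ± 0.08 (adjusted p 0.0087), did not pass without NFAT2-CA replicate 2 (0.24, adjusted p 0.055, limma). Rasgrp1, which diacylglycerol recruits, averaged 382 ± 7.12 CPM with NFAT2-CARIT, 418 ± 17.7 CPM with NFAT2-CA and 510.1 ± 45.3 CPM in Control and fell by 0.41 with NFAT2-CARIT and 0.28 with NFAT2-CA. Plcg1 encodes the phospholipase C gamma that acts below Lat. Values of Plcg1 were 508, 535 and 521 CPM in NFAT2-CARIT libraries, 541, 534 and 548 CPM in NFAT2-CA libraries and 587, 612 and 535 CPM in Control libraries. The groups overlapped, and the differences from Control were -0.15 ± 0.06 (adjusted p 0.033) with NFAT2-CARIT and -0.09 ± 0.06 (adjusted p 0.17) with NFAT2-CA. The NFAT2-CARIT call for Plcg1 was lost when any of 5 libraries was left out (the 3 of NFAT2-CARIT, and Control replicates 1 and 2), at adjusted p between 0.051 and 0.17, and under TMM factors (-0.07, adjusted p 0.33).

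The protein kinase C genes fell and the genes of the Bcl10 and Malt1 complex, which carries the signal to NF-kappaB, rose. Prkcb encodes protein kinase C beta. In the NFAT2-CARIT libraries Prkcb stood at 46.4, 52.1 and 51.6 CPM, in the NFAT2-CA libraries at 70.1, 64.3 and 78.4 CPM, and in Control at 107, 109.6 and 91.5 CPM. Libraries of the 3 groups did not overlap, lowest with NFAT2-CARIT and highest in Control. Prkcb fell with NFAT2-CARIT (-1.02 ± 0.08, adjusted p 1.5e-08), with NFAT2-CA (-0.53 ± 0.08, adjusted p 3.5e-05) and with NFAT2-CARIT against NFAT2-CA (-0.49 ± 0.08, adjusted p 3.3e-04). Prkcq, whose product protein kinase C theta is the main isoform at the T cell synapse, averaged 376 ± 7.88 CPM with NFAT2-CARIT, 475 ± 6.87 CPM with NFAT2-CA and 599.7 ± 30.8 CPM in Control. It fell by 0.67 with NFAT2-CARIT, 0.33 with NFAT2-CA, and 0.34 with NFAT2-CARIT against NFAT2-CA. Malt1 encodes the protease of the complex. Malt1 had 719.7, 768 and 861 CPM with NFAT2-CARIT, 654, 599.8 and 758 CPM with NFAT2-CA, against 503, 494 and 461 CPM in Control. Control lay below all other libraries, and Malt1 rose by 0.68 ± 0.08 (adjusted p 2.7e-06) with NFAT2-CARIT and 0.46 ± 0.08 (adjusted p 1.8e-04) with NFAT2-CA. The vectors overlapped, and their difference did not pass (0.23 ± 0.08, adjusted p 0.055). Bcl10, its partner, averaged 102 ± 3.69 CPM with NFAT2-CARIT, 86.1 ± 3.18 CPM with NFAT2-CA and 71.2 ± 3.24 CPM in Control and rose by 0.52 with NFAT2-CARIT, 0.27 with NFAT2-CA, and 0.25 with NFAT2-CARIT against NFAT2-CA.

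The costimulatory receptors rose with either vector. Icos, a receptor of the Cd28 family that signals strongly through PI3K, had the largest rise of any member with NFAT2-CARIT. Values of Icos were 378, 371 and 363 CPM in NFAT2-CARIT libraries, 276, 266 and 266 CPM in NFAT2-CA libraries and 117, 112 and 109 CPM in Control libraries. The 3 groups were fully apart. Icos rose 3.29-fold with NFAT2-CARIT (1.71 ± 0.05, adjusted p 7.5e-14) and 2.39-fold with NFAT2-CA (1.25 ± 0.05, adjusted p 4.4e-12), and was higher with NFAT2-CARIT than with NFAT2-CA (0.46 ± 0.05, adjusted p 8.4e-06). Cd28, the main costimulatory receptor of naive T cells, rose less. In the NFAT2-CARIT libraries Cd28 stood at 608, 622 and 612 CPM, in the NFAT2-CA libraries at 619, 598 and 616 CPM, and in Control at 473, 474 and 454 CPM. Both vectors lay above Control, by 0.40 ± 0.05 (adjusted p 3.3e-06) with NFAT2-CARIT and 0.39 ± 0.05 (adjusted p 4.7e-06) with NFAT2-CA, and they overlapped each other.

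Both PI3K subunit genes among the members were called, Pik3r1 up and Pik3cd down. Pik3r1 encodes the p85 alpha regulatory subunit. Pik3r1 had 276, 301 and 297 CPM with NFAT2-CARIT, 274, 270.0 and 298 CPM with NFAT2-CA, against 186, 184 and 167 CPM in Control. It rose by 0.70 ± 0.06 (adjusted p 4.3e-08) with NFAT2-CARIT and 0.65 ± 0.06 (adjusted p 1.3e-07) with NFAT2-CA, with the vectors overlapping. Pik3cd encodes the p110 delta catalytic subunit of lymphocytes. Values of Pik3cd were 530.0, 556 and 545 CPM in NFAT2-CARIT libraries, 569, 578 and 566 CPM in NFAT2-CA libraries and 769, 749.8 and 681 CPM in Control libraries. It fell by 0.43 on the log2 scale with NFAT2-CARIT and by 0.36 with NFAT2-CA, with Control above all other libraries. Akt1 encodes the kinase that acts below PI3K. Akt1 had 65.1, 72.9 and 67.6 CPM with NFAT2-CARIT, 77.5, 79.8 and 74.2 CPM with NFAT2-CA, against 116, 121 and 110.4 CPM in Control. It fell as well, with fold changes of -0.75 ± 0.06 (adjusted p 1.7e-08) with NFAT2-CARIT and -0.58 ± 0.06 (adjusted p 4.7e-07) with NFAT2-CA, and the difference of -0.17 ± 0.06 between the vectors lay at the threshold, with an adjusted p of 0.050 in limma.

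Among the 6 inhibitory enzymes, 2 rose and 4 fell with NFAT2-CARIT, and 3 rose and 3 fell with NFAT2-CA. Beside them, 29.2% of all genes rose and 41.1% fell with NFAT2-CARIT, and 29.0% and 36.5% with NFAT2-CA. Ptpn6 encodes the tyrosine phosphatase SHP-1, which acts on receptor-proximal substrates. Ptpn6 had 437, 431 and 446 CPM with NFAT2-CARIT, 454, 489.7 and 444 CPM with NFAT2-CA, against 169.7, 169 and 158 CPM in Control. Control libraries lay far below the rest. Ptpn6 rose 2.65-fold with NFAT2-CARIT (1.40 ± 0.06, adjusted p 2.2e-12) and 2.80-fold with NFAT2-CA (1.48 ± 0.06, adjusted p 1.3e-12), and the vectors overlapped. Ptpn22 encodes a phosphatase of Lck and Zap70. Values of Ptpn22 were 667, 664 and 709 CPM in NFAT2-CARIT libraries, 728, 719 and 716 CPM in NFAT2-CA libraries and 526, 513 and 516 CPM in Control libraries. It rose by 0.39 ± 0.05 (adjusted p 4.6e-06) with NFAT2-CARIT and 0.48 ± 0.05 (adjusted p 5.7e-07) with NFAT2-CA. Csk encodes the kinase that phosphorylates the inhibitory tyrosine of Lck and Fyn. Csk had 323, 308 and 309 CPM with NFAT2-CARIT, 319, 326 and 316 CPM with NFAT2-CA, against 457, 443 and 463 CPM in Control. It fell by 0.53 with NFAT2-CARIT and 0.50 with NFAT2-CA on the log2 scale, and the vectors overlapped below Control. Inpp5d, whose product SHIP1 removes a phosphate from the lipid made by PI3K, averaged 206 ± 2.29 CPM with NFAT2-CARIT, 195 ± 7.73 CPM with NFAT2-CA and 256 ± 25.3 CPM in Control and fell by 0.31 with NFAT2-CARIT and 0.39 with NFAT2-CA.

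Ubash3a and Ubash3b encode the related proteins STS-2 and STS-1, which restrain receptor signalling, with STS-1 the stronger phosphatase. Ubash3a fell with either vector. Ubash3a had 76.6, 84.5 and 87.7 CPM with NFAT2-CARIT, 88.9, 91.2 and 92.9 CPM with NFAT2-CA, against 231, 233 and 224 CPM in Control. Its fold changes were -1.46 ± 0.06 (adjusted p 2.6e-12) with NFAT2-CARIT and -1.32 ± 0.06 (adjusted p 9.8e-12) with NFAT2-CA, and the difference between the vectors did not pass (-0.13 ± 0.06, adjusted p 0.10). Ubash3b was called in opposite directions with the vectors. Values of Ubash3b were 36.5, 36.1 and 34.5 CPM in NFAT2-CARIT libraries, 63.7, 64.1 and 70.3 CPM in NFAT2-CA libraries and 55.9, 57.1 and 54.9 CPM in Control libraries. The 3 groups did not overlap, with NFAT2-CARIT lowest and NFAT2-CA highest. Ubash3b fell with NFAT2-CARIT (-0.63 ± 0.06, adjusted p 1.2e-07) and rose with NFAT2-CA (0.23 ± 0.06, adjusted p 0.0032), and the direct difference of NFAT2-CARIT from NFAT2-CA was -0.87 ± 0.06 (adjusted p 3.9e-08). In the authors' deposited table the rise with NFAT2-CA was not called (0.24, FDR 0.45), while the fall with NFAT2-CARIT and the difference between the vectors were.

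The promoters of Ptpn6 and Ubash3a are shown as those of the inhibitory enzymes that moved furthest from Control, up and down. They are given as above, with GGAAA or TTTCC in capitals: Ptpn6 at chr6:124738710-124738959 (minus strand) and Ubash3a at chr17:31207816-31208065 (plus strand). The RefSeq start of Ubash3a lies 193 bases downstream of the listed 5′ end (31207873). Most of its window therefore lies inside the gene as listed, and few of its bases lie before that end.
Ptpn6: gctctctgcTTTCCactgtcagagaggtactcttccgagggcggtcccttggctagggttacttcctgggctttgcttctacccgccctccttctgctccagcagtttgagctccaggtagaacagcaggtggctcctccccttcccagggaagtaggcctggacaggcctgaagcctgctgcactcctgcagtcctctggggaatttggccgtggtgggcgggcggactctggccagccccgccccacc
Ubash3a: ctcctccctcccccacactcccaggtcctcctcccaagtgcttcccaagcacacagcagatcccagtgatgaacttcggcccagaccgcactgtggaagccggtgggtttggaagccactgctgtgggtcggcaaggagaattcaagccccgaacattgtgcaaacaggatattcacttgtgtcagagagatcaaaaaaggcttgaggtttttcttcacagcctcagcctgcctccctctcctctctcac
Ptpn6's window held 1 such motif and Ubash3a's held 0.

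Of the 7 inhibitory adaptors, 3 rose and 4 fell with NFAT2-CARIT, and 2 rose and 4 fell with NFAT2-CA. The background of all genes was 29.2% up and 41.1% down with NFAT2-CARIT, and 29.0% and 36.5% with NFAT2-CA. Sit1, a transmembrane adaptor that binds SHP-2, fell furthest of them with NFAT2-CARIT. Sit1 had 9.24, 11.5 and 10.2 CPM with NFAT2-CARIT, 20.5, 19.8 and 15.5 CPM with NFAT2-CA, against 39.1, 39.8 and 44.1 CPM in Control. The groups did not overlap. Sit1 fell with NFAT2-CARIT to 0.252 of Control (-1.90 ± 0.11, adjusted p 1.2e-10) and with NFAT2-CA to 0.453 of it (-1.11 ± 0.11, adjusted p 1.2e-07), and NFAT2-CARIT lay below NFAT2-CA (-0.79 ± 0.11, adjusted p 4.2e-05). Pag1 encodes the membrane anchor of Csk. Pag1 had 43.9, 47.4 and 49.7 CPM with NFAT2-CARIT, 38.9, 33.9 and 42.1 CPM with NFAT2-CA, against 116, 116 and 98.9 CPM in Control. It fell with NFAT2-CARIT (-1.21 ± 0.08, adjusted p 2.4e-09) and further with NFAT2-CA (-1.51 ± 0.08, adjusted p 1.8e-10). The difference between the vectors (0.29 ± 0.08, adjusted p 0.016) did not pass without NFAT2-CARIT replicate 2 (adjusted p 0.057, limma), without NFAT2-CARIT replicate 3 (0.065) or without NFAT2-CA replicate 2 (0.093). Dok2 encodes an adaptor that recruits a brake on Ras. Values of Dok2 were 54.4, 52.8 and 48.3 CPM in NFAT2-CARIT libraries, 54.9, 57.1 and 51.4 CPM in NFAT2-CA libraries and 135, 133 and 141 CPM in Control libraries. It fell by 1.38 with NFAT2-CARIT and 1.31 with NFAT2-CA on the log2 scale, and the vectors overlapped. Dok2 overlaps Xpo7 on the other strand, and Xpo7 did not pass with either vector (109.7, 106 and 110.0 CPM on average with NFAT2-CARIT, with NFAT2-CA and in Control).

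Sla encodes SLAP, an adaptor that with Cbl lowers the receptor's zeta chain. Sla had 1080.5, 1096 and 1073 CPM with NFAT2-CARIT, 1267, 1283 and 1294 CPM with NFAT2-CA, against 586, 581 and 593 CPM in Control. The 3 groups did not overlap. Sla rose with NFAT2-CARIT (0.88 ± 0.05, adjusted p 1.4e-10) and with NFAT2-CA (1.13 ± 0.05, adjusted p 7.8e-12), and NFAT2-CARIT lay below NFAT2-CA (-0.24 ± 0.05, adjusted p 0.0017). Sla lies within Tg on the opposite strand (chromosome 15), and values assigned to Tg moved too. Tg averaged 132 ± 11.5 CPM with NFAT2-CARIT, 94.9 ± 7.55 CPM with NFAT2-CA and 7.46 ± 0.310 CPM in Control (SD, n = 3 each). Whether the counting used strand is not given in the sources used here, and without strand reads of the 2 genes cannot be told apart. The same limit holds for Plcg1 (Zhx3) and Sla2 (Rab5if), and Fyb overlaps the pseudogene Gm7666 on its own strand. Sla2, its relative SLAP2, averaged 48.0 ± 2.57 CPM with NFAT2-CARIT, 61.8 ± 3.63 CPM with NFAT2-CA and 83.6 ± 5.87 CPM in Control and fell by 0.79 with NFAT2-CARIT, 0.43 with NFAT2-CA, and 0.36 with NFAT2-CARIT against NFAT2-CA. Lax1, an adaptor related to Lat, averaged 39.0 ± 1.43 CPM with NFAT2-CARIT, 36.8 ± 0.844 CPM with NFAT2-CA and 30.7 ± 2.96 CPM in Control and rose by 0.34 with NFAT2-CARIT and 0.26 with NFAT2-CA. Dok1 averaged 49.2 ± 1.52 CPM with NFAT2-CARIT, 43.0 ± 1.10 CPM with NFAT2-CA and 38.9 ± 1.94 CPM in Control and rose with NFAT2-CARIT (0.33 ± 0.06, adjusted p 1.7e-04), while its NFAT2-CA difference of 0.14 did not pass (adjusted p 0.055, limma).

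The 4 genes reported in both roles split evenly against Control, with 2 up and 2 down with either vector. Of all genes tested, 29.2% were up and 41.1% down with NFAT2-CARIT, and 29.0% and 36.5% with NFAT2-CA. Sh2d2a encodes TSAd, an adaptor that binds Lck. Sh2d2a had 1299, 1319 and 1338 CPM with NFAT2-CARIT, 1397, 1477 and 1398 CPM with NFAT2-CA, against 442, 445 and 397 CPM in Control. All Control libraries lay far below the others. Sh2d2a rose 3.08-fold with NFAT2-CARIT (1.62 ± 0.06, adjusted p 4.7e-13) and 3.33-fold with NFAT2-CA (1.73 ± 0.06, adjusted p 2.4e-13), the largest rise of any member with NFAT2-CA. Themis, which tunes receptor signals in developing T cells, fell. Values of Themis were 235, 248 and 255 CPM in NFAT2-CARIT libraries, 289.6, 281 and 298 CPM in NFAT2-CA libraries and 602, 583 and 585 CPM in Control libraries. It fell with NFAT2-CARIT (-1.26 ± 0.05, adjusted p 4.3e-12), with NFAT2-CA (-1.02 ± 0.05, adjusted p 6.8e-11) and between the vectors (-0.23 ± 0.05, adjusted p 0.0037).

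Ptpn11 encodes the phosphatase SHP-2, which also promotes Ras signalling. Ptpn11 had 101, 99.1 and 104 CPM with NFAT2-CARIT, 88.8, 92.4 and 92.7 CPM with NFAT2-CA, against 74.8, 73.9 and 60.0 CPM in Control. It rose by 0.54 ± 0.07 (adjusted p 6.4e-06) with NFAT2-CARIT and 0.39 ± 0.07 (adjusted p 2.0e-04) with NFAT2-CA, with Control below all other libraries. Ptprc encodes CD45, which removes the inhibitory phosphate from Lck. Ptprc had 2857, 3049.6 and 3447 CPM with NFAT2-CARIT, 3008, 2728 and 3098 CPM with NFAT2-CA, against 3809, 3877 and 3916 CPM in Control. It fell by 0.32 with NFAT2-CARIT and 0.40 with NFAT2-CA on the log2 scale, and the vectors overlapped.

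The direct comparison of NFAT2-CARIT with NFAT2-CA asks what the RIT changes alter. Nfatc1 values differed between these groups too, at 240.5, 245 and 253 CPM with NFAT2-CARIT and 342, 336 and 395 CPM with NFAT2-CA (-0.53 ± 0.08, adjusted p 9.3e-05), and its part in the differences was not tested. In it 6 members rose, 9 fell and 29 did not pass, with 28.6% of all genes called, 11.9% up and 16.7% down. The members' share of 34.1% lay near that background. With the filter at 10 CPM, 17 of 43 members were called, beside 34.0% of all genes. Txk, Icos, Sos1, Pag1, Bcl10 and Dok1 were higher with NFAT2-CARIT, and Ubash3b, Zap70, Sit1, Prkcb, Fyn, Sla2, Prkcq, Sla and Themis were lower. Of the 27 activators, 4 rose and 4 fell; of the 13 inhibitors, 2 rose and 4 fell. The 2 rises of inhibitors were Pag1 and Dok1. The call for Dok1 (0.19 ± 0.06, adjusted p 0.031) was lost without NFAT2-CARIT replicate 1 or 2 or any 1 NFAT2-CA library, at adjusted p between 0.052 and 0.12. The median difference over the members was -0.02, beside -0.03 over all genes tested. In the authors' deposited table, 7 of the 44 passed an FDR of 0.05 between the vectors (Txk and Icos higher with NFAT2-CARIT, and Zap70, Fyn, Prkcq, Ubash3b and Sla lower), where 2.84% of all genes did.

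**Figure D3:**
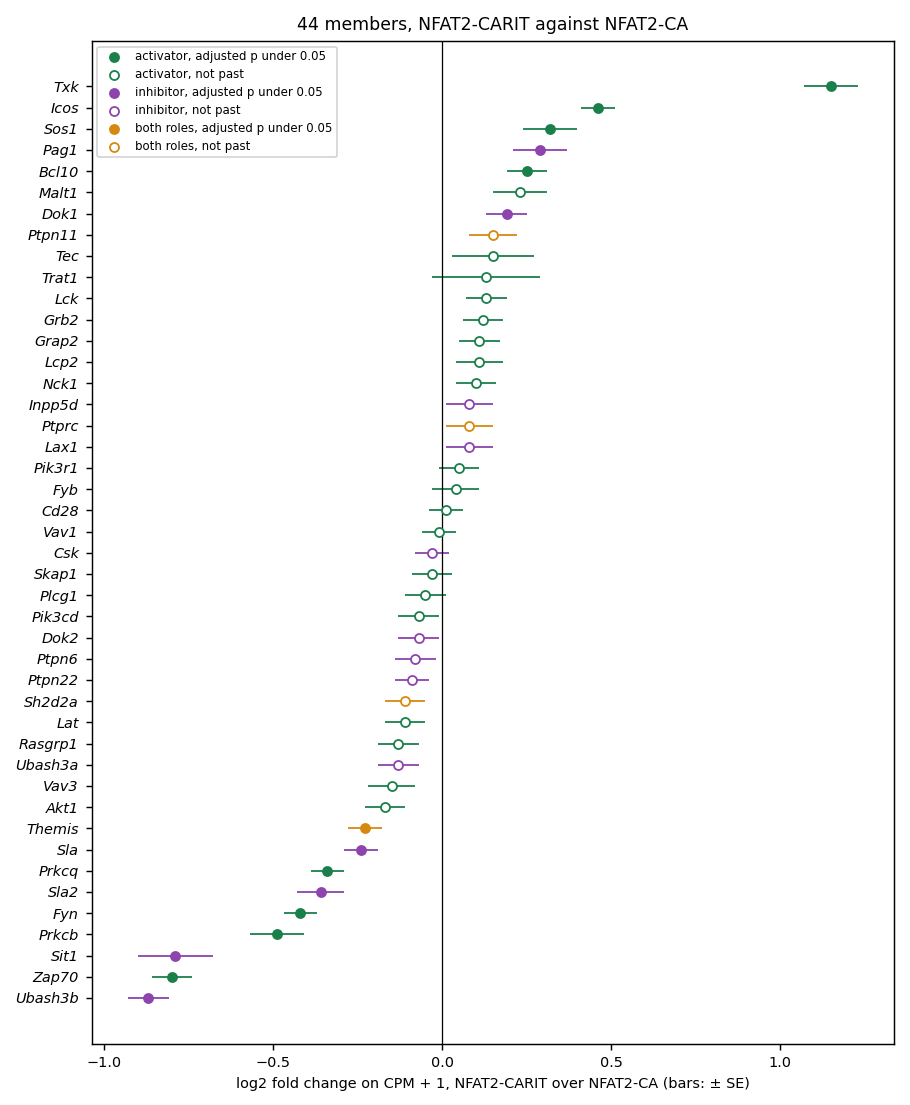
Log2 fold change on CPM + 1 of NFAT2-CARIT over NFAT2-CA for the 44 members in order of size, with bars of ± SE (3 libraries a group); filled points passed an adjusted p under 0.05, and colours give the role. Txk stands alone at 1.15, and Ubash3b, Zap70 and Sit1 lie at -0.87, -0.80 and -0.79.

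The plot of vector differences shows activators and inhibitors on either side of 0. The members furthest from 0 were a kinase that was higher with NFAT2-CARIT (Txk), and a kinase, a phosphatase and an inhibitory adaptor that were lower with it (Zap70, Ubash3b and Sit1). Libraries of the 2 vectors did not overlap for 28 of the 44 members, beside 44.0% of all genes tested.

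Other genes of the pathway, 79 on a list by role and 77 of them tested (Shb and Dok3 did not reach the filter), gave the setting of the members. With NFAT2-CARIT 19 rose and 36 fell against Control, with NFAT2-CA 20 rose and 41 fell, and with NFAT2-CARIT against NFAT2-CA 23 rose and 18 fell. The shares called were 71.4%, 79.2% and 53.2% of the 77, beside 70.3%, 65.5% and 28.6% of all genes, so the first is near its background. Gab2, a scaffold that can recruit SHP-2, rose most, at 60.6 ± 1.04 CPM with NFAT2-CARIT, 41.6 ± 0.947 CPM with NFAT2-CA and 4.58 ± 1.01 CPM in Control (log2 fold changes 3.48 and 2.95 against Control). Spry1, a feedback inhibitor of the Ras and MAP kinase route, averaged 17.7 ± 1.20 CPM with NFAT2-CARIT, 40.3 ± 0.976 CPM with NFAT2-CA and 4.87 ± 0.736 CPM in Control. Its direct difference between the vectors was -1.14 ± 0.10. Tnfaip3, which encodes the NF-kappaB brake A20 and acts on the route through Malt1, rose by 1.63 with NFAT2-CARIT and 1.07 with NFAT2-CA. Rasal1, a Ras brake, rose by 1.47 with NFAT2-CARIT.

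Rasa3, a brake on Ras-family proteins, fell with either vector, at 115 ± 8.28 CPM with NFAT2-CARIT, 77.6 ± 2.28 CPM with NFAT2-CA and 327 ± 2.82 CPM in Control (SD, n = 3 each). Also among the largest falls with NFAT2-CARIT were Rasal3 (-1.24), Ptpn7 (-1.20) and the Rac exchange factor Dock2 (-1.19). With NFAT2-CA they were Grap (-1.36), an adaptor of the Grb2 family, and Dock2 and the actin regulator Evl (-1.12 each). The receptor chain gene Cd3e rose by 1.18 with NFAT2-CA and 0.75 with NFAT2-CARIT, and Itpkb, an inositol phosphate kinase, by 1.07 and 0.71. Between the vectors, the largest differences upward with NFAT2-CARIT were those of Ctla4 (0.79), Rasal1 (0.71), Itpr1 (0.61) and Rasa3 (0.56), with Tnfaip3 also at 0.56. Itpr2 (-0.63), Cd3g (-0.49) and Pik3r5 (-0.45) followed Spry1 among the lower ones. Rasal1 was low, at 7.04 ± 0.158 CPM with NFAT2-CARIT, 3.98 ± 1.01 CPM with NFAT2-CA and 1.92 ± 0.411 CPM in Control. Its difference between the vectors and that of Pik3r5 were not called in the authors' deposited table.

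**Figure D4:**
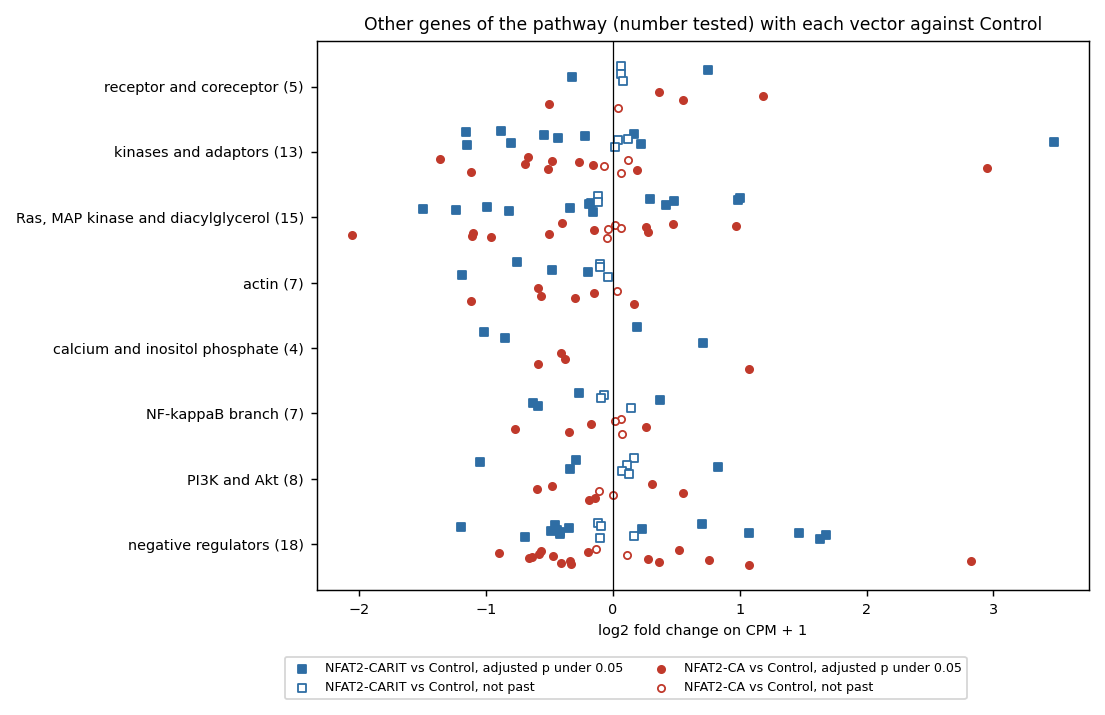
Log2 fold change on CPM + 1 of 77 other genes of the pathway with NFAT2-CARIT (squares) and NFAT2-CA (circles) against Control, by role with the number tested; filled points passed an adjusted p under 0.05. Gab2 stands apart at 3.48 and 2.95 among kinases and adaptors, and Spry1 at 2.82 with NFAT2-CA among negative regulators.

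The plot of these other genes shows points on either side of 0 in each role with either vector, except the actin genes with NFAT2-CARIT. Of these 7 genes, 0 rose, 4 fell and 3 did not pass, a share called of 57.1%. Of all genes tested, 70.3% were called in that comparison and 41.1% fell, so these few genes are not set apart from the background.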

How the data were processed

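The members and the lists of other pathway genes and markers were chosen with earlier results of these data known. Per the labels' protocols, column-purified RNA was sequenced from both ends of each fragment. The authors deposited CPM for 16500 genes, with 0.0001 added to each value (checked on the file), in 9 libraries of 3 groups. Their comparison table, for which the submitters' processing notes name DESeq2 and Partek 10, holds for each comparison a p-value, an FDR, a ratio of means and its log2, per the file headers. The deposited column of total counts is a signal equal to the sum of the 9 CPM values. The same notes name the build mm10. The aligner, the annotation and any use of strand were not given in the sources used here.

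Read depth was estimated from the steps between low values. Only 82.1% to 84.8% of values under 1 CPM were whole reads within 0.1 read, under the 95% required, so no count test was run. Group means of log2(CPM + 1) were fitted to all 9 libraries with limma 3.58.1 (R 4.3.3), using trend and robust empirical Bayes, and Benjamini-Hochberg adjustment over 13096 genes with at least 1 CPM in at least 3 libraries. A filter of 10 CPM, used in earlier work on these files, was kept as an alternative. Fold changes on this scale understate those of low genes such as Trat1. Values in each library are given for the members of each role with the largest called change and for Lck, Zap70, Lat, Lcp2, Plcg1, Cd28, Ptprc, Csk and Ptpn22. Other pathway genes are named by the 4 largest called changes in each direction. The symbols were matched to GENCODE M21 and RefSeq promoters by name.

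Alternatives changed the pseudocount (0.5 or 5), the filter (none or 10 CPM), the scaling (trimmed mean of M values, TMM, or quantile), the weights (array quality), the libraries fitted (only the 6 compared, or each left out in turn) and the design (replicate block), or took the authors' table instead. Python 3.11.15 and matplotlib 3.10.9 drew the figures.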

Additional observations from a re-analysis of the deposited data

How the results depend on the processing

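No member changed sign as a call under any alternative run. Limma settings other than leaving out 1 library called 42 to 44 members with NFAT2-CARIT and 40 to 42 with NFAT2-CA. Between the vectors they called 15 to 22. The filter of 10 CPM tested 43 members. Of all genes these settings called 6964 to 9986, 6650 to 9192 and 3142 to 5286 in the same order. Leaving out 1 library gave 41 to 44, 40 to 41 and 12 to 19 members. Of all genes it gave 8516 to 9345, 7896 to 8585 and 2763 to 4215. The authors' deposited table made fewer calls: between the vectors 7 members (5 activators and 2 inhibitors) against 15 (8 and 6) here, and 37 with NFAT2-CARIT and 31 with NFAT2-CA (43 and 40 here). Of other pathway genes it called 36 with NFAT2-CARIT, 36 with NFAT2-CA and 12 between the vectors (55, 61 and 41 here), and of all genes 4216, 3602 and 468 (9202, 8577 and 3743 here). The cause was not tested. Of the members called here with NFAT2-CARIT against Control, Txk, Tec, Grb2, Plcg1, Lax1 and Dok1 were not called in that table (FDR 0.18 to 0.40). With NFAT2-CA, Tec, Grb2, Nck1, Sos1, Bcl10, Ubash3b, Sla2, Lax1 and Ptpn11 were called here and not there (FDR 0.052 to 0.52). TMM factors moved the median of all genes by at most 0.08, and under them Grb2 (adjusted p 0.20, limma) and Plcg1 (0.33) were no longer called with NFAT2-CARIT, while Lck (0.0059) with NFAT2-CARIT, Dok1 (0.012) with NFAT2-CA and Malt1 (0.034) between the vectors were called as higher. Replicates with the same number did not deviate together in every pair (correlations from -0.07 to 0.26), so the numbers were not taken as pairs. With the replicate block 43 members were called with NFAT2-CARIT, 40 with NFAT2-CA and 16 between the vectors, where Akt1 was added (-0.17, adjusted p 0.046, limma). Malt1 (0.23) passed between the vectors under 5 of 18 alternatives and Akt1 under 8. Depth limits Trat1 most, with 1.39 to 2.51 CPM with either vector.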

Other observations

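Members that lie side by side in the genome did not all move together. Txk and Tec are 2938 bases apart on chromosome 5 with no coding gene between them. Txk changed by 0.35 with NFAT2-CARIT and -0.80 with NFAT2-CA, and Tec by -0.50 and -0.65, as log2 fold changes against Control. Cd28 and Icos are 204567 bases apart on chromosome 1, with Ctla4 between them, and all 3 genes rose with either vector. Against Control, Cd28 rose by 0.40 with NFAT2-CARIT and 0.39 with NFAT2-CA, Ctla4 by 1.07 and 0.28, and Icos by 1.71 and 1.25. Ctla4 averaged 407 ± 13.5 CPM with NFAT2-CARIT, 235 ± 17.4 CPM with NFAT2-CA and 194 ± 20.7 CPM in Control (SD, n = 3 each), and the NFAT2-CA and Control libraries of Ctla4 overlapped. In the authors' deposited table the rise of Ctla4 with NFAT2-CA was not called (0.27, FDR 0.057). Both comparisons use the same Control libraries, and whether neighbours move together was not tested.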
